A study of Mus musculus with 12 samples.

Results

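RNA from mouse embryonic stem cells was compared between 3 libraries of double knockout (DKO) cells, which lack both Rlf and Zfp292, and 3 libraries of wild-type (WT) cells, all taken after 72 hours of retinoic acid (RA). These 6 of the 12 libraries of the series were chosen by their titles, which name the genotype and the RA treatment. The other 6 are the same genotypes, 3 libraries each, kept in medium with LIF (called serum/LIF). They show where the genotype difference after RA departs from that before it. They also enter the filter on low counts and the spread used by the main test after RA. All cells were TT2, a mouse embryonic stem cell line, grown on gelatin in medium with knockout serum replacement, fetal bovine serum and LIF, a cytokine that holds them undifferentiated. For RA treatment, LIF was left out and 5 µM RA was added. The labels do not say how many DKO clones were used, so a property of the genotype and a property of 1 clone cannot be told apart. They name 3 biological replicates per group without saying what separated them, and the p-values measure the spread between these samples.

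RA binds receptors of the RAR and RXR families, which sit on DNA as pairs and activate genes such as Cyp26a1, Rarb, Stra8 and the Hox clusters. Without LIF and with RA, embryonic stem cells lose the pluripotency network, switch on neural progenitor and spinal cord patterning genes, and later make neurons. Rlf and Zfp292 encode zinc finger proteins, and the title of the series ties them to CoREST, a complex that removes activating histone marks, and to bivalent genes, which carry activating and repressive marks at once. A small share of embryonic stem cells passes at times into a state like the 2-cell embryo, marked by the Zscan4 genes and by transcripts of the MERVL retrovirus.

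Sequences of the regions where the named responses begin are shown first, from RefSeq on GRCm38.p6. The direct repeats of Cyp26a1 and Rarb, the kind of element bound by RAR and RXR, are given because these genes are the classical readout of RA, and the stretches before 4 Zscan4 genes are given because the genes are near copies of each other, which bears on how reads were shared among them. Capitals mark the repeat in the first pair and, in the other 4, the 12 of 210 positions at which the copies differ.
Cyp26a1, chr19:37697658-37697807, plus strand: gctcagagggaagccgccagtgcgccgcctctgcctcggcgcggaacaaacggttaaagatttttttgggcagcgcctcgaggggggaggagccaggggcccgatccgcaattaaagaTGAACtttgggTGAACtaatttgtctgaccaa
Rarb, chr14:16575477-16575626, minus strand: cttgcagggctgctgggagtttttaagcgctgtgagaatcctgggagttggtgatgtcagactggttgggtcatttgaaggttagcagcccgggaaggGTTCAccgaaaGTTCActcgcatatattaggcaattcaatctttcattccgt
Zscan4b, chr7:10905057-10905266, minus strand: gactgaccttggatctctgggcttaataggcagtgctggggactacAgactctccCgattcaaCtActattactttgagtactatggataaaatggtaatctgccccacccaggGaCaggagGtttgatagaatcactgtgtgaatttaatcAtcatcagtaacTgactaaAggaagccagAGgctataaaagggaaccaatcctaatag
Zscan4c, chr7:11005506-11005715, plus strand: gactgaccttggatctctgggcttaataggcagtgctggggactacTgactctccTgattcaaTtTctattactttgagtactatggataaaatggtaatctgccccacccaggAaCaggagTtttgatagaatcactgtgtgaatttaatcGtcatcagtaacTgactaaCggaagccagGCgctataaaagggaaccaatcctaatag
Zscan4d, chr7:11166189-11166398, minus strand: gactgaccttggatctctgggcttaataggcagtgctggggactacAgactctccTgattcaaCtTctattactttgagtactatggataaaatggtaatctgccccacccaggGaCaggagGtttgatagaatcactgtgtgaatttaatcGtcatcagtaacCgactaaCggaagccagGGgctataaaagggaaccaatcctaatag
Zscan4f, chr7:11397699-11397908, plus strand: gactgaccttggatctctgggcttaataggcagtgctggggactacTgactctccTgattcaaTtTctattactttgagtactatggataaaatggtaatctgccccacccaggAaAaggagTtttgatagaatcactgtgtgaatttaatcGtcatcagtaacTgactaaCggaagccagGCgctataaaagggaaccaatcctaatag
In Cyp26a1 the repeat lay 32 to 17 bases before the start of the gene, and in Rarb 52 to 37. It was searched as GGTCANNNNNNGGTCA, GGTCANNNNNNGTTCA, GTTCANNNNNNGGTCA and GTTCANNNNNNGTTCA on both strands, and 0.27% of the 27025 gene symbols with a promoter in the RefSeq table held 1 of these spellings within 250 bases before to 50 after a start. TATAAAA, searched on both strands, stood in all 4 Zscan4 stretches and in 5.48% of the 32851 promoters. Zscan4c and Zscan4f differed at 1 base of the 210, and Zscan4b and Zscan4f at 11.

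The 6 RA libraries held 30869766 to 34878989 reads in genes. Both targeted genes checked the labels. Rlf had normalized counts (reads divided by a size factor of the library) of 2627, 2472 and 2733 in the WT libraries and 0.948, 0 and 0 in the DKO libraries, and Zfp292 had 3074, 2859 and 3566 and 0, 0 and 0. For Rlf, 8426 reads in WT stood against 1 in DKO, 8530 times as many after scaling by size factors (95% interval from counting error alone 1531 to 3.37e+05), and Zfp292 was at least 3454-fold lower, with 3 reads standing in for 0 over the group. Zfp654, a related zinc finger gene, had 992, 842 and 871 in WT and 825, 849 and 804 in DKO, and did not pass the test (adjusted p = 0.24). The undifferentiated libraries carried the markers of embryonic stem cells, with WT means of 33444 for Pou5f1 and 16010.0 for Sox2. After RA, Cyp26a1 stood at 18035 to 18517 in WT and 18965 to 19419 in DKO, against means of 66.7 and 53.6 in serum/LIF. The blood marker Cd52 was at or near 0, from 0 to 3.67 in the 6 libraries.

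Replicate 2 of WT stood apart from the other RA libraries. Repeats of the rRNA class took 41.74% of its repeat reads and 4.14% to 5.20% in the other 5. In the gene table it was higher than the mean of its 2 replicates in 30 of 35 tested ion channel subunits (median 0.50 on the log2 scale) and in 19 of 24 genes of the list of REST and its neuronal targets (median 0.37). Counts without it are given beside the main lists, and leaving it out moved no other count of list members given here by over 1.5 times.

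Of 17901 genes, 15750 passed a filter of 10 or more normalized counts in at least 3 of the 12 libraries. After RA, 6727 of these (42.7%) passed limma's test at a Benjamini-Hochberg adjusted p under 0.05, 3468 (22.0%) higher and 3259 (20.7%) lower in DKO, and the median log2 fold change of all tested genes was 0.01. Changes of 2-fold or more were fewer, with 492 genes (3.12%) higher and 801 (5.09%) lower. For 8585 genes (54.5%) the 3 DKO values lay wholly above (28.0%) or below (26.5%) the 3 WT values, so that groups that do not overlap are common here. Without replicate 2 of WT, 37.8% were called, 3112 genes (19.8%) higher and 2840 (18.0%) lower. In the plot of gene lists, the lists are ordered by their median, from pluripotency at the top to the Zscan4 cluster at the bottom.

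**Figure D1:**
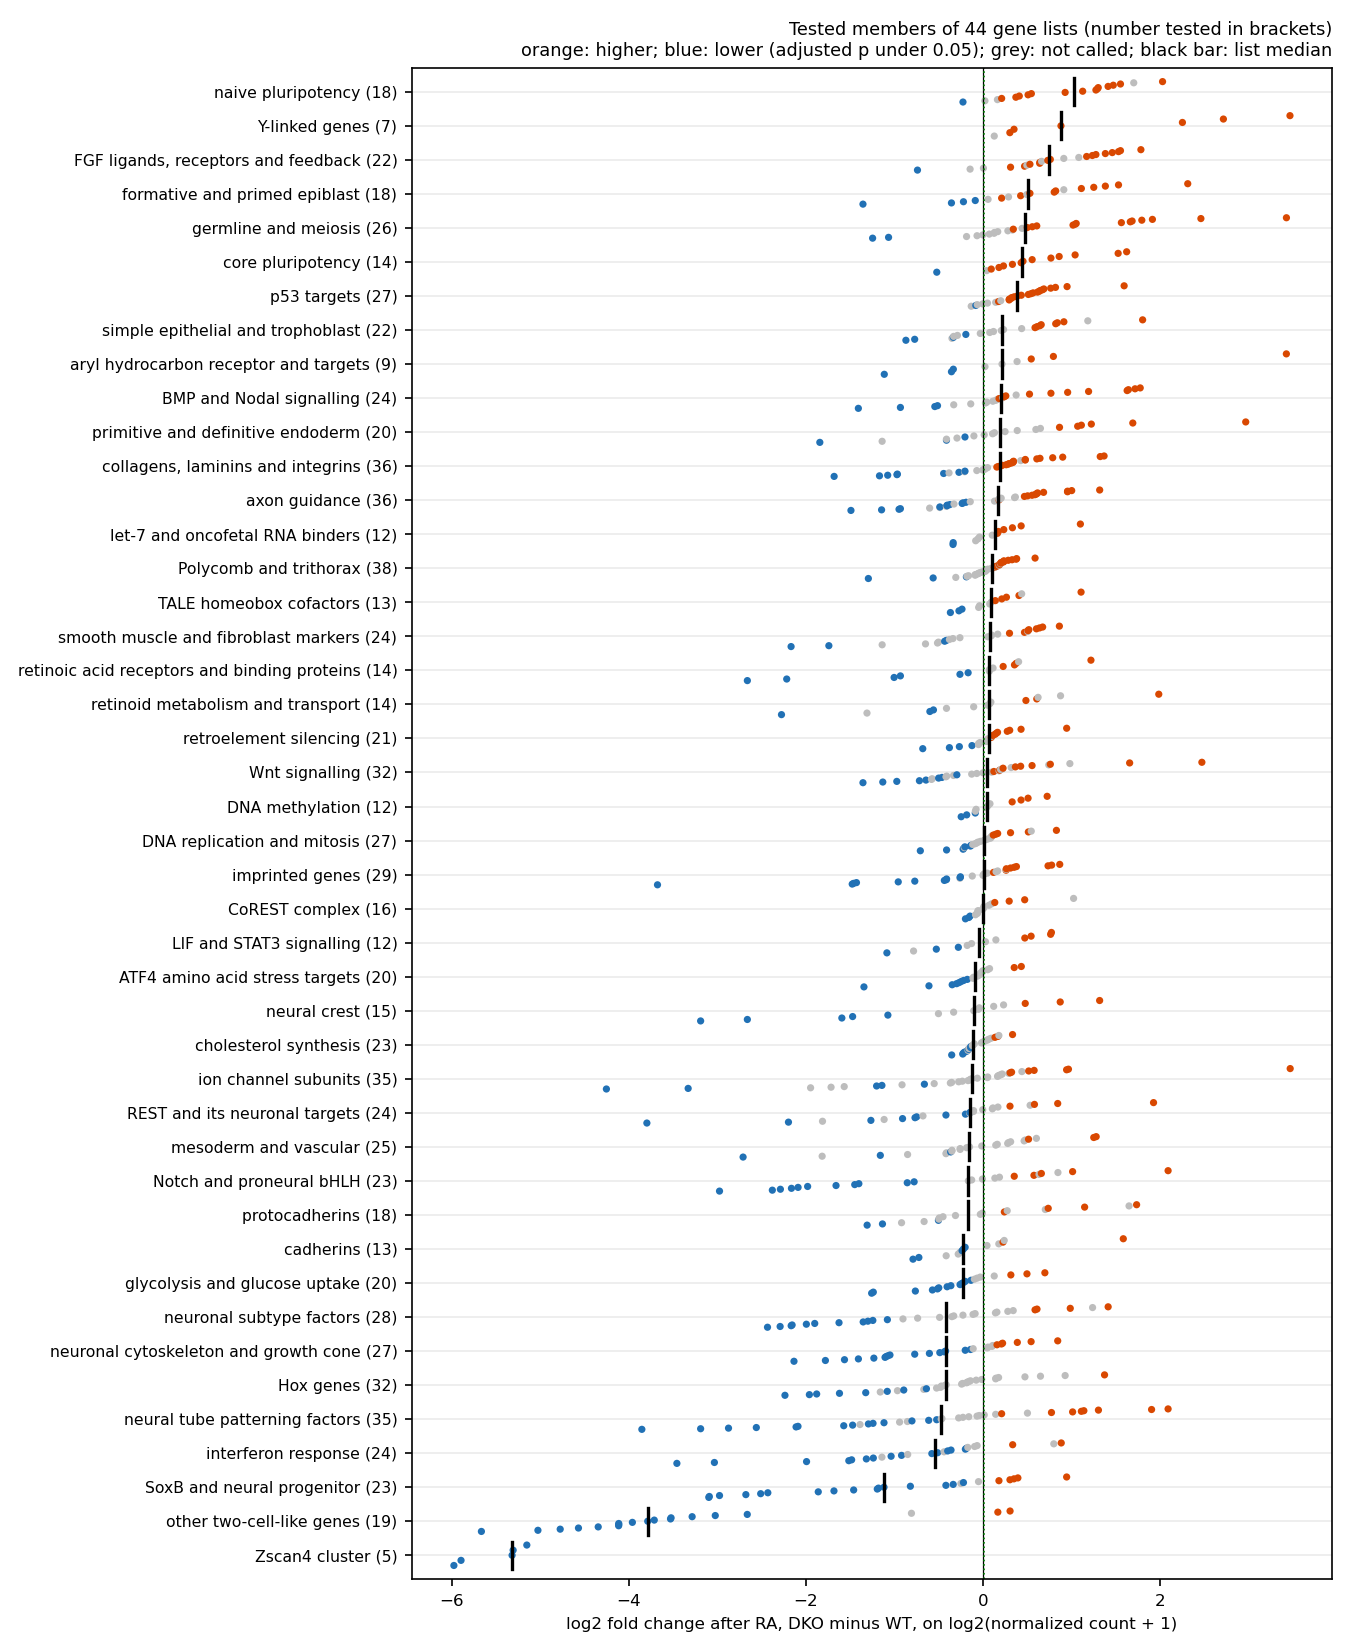
Log2 fold change after RA (DKO minus WT) of each tested member of 44 gene lists, with 1 point per gene, the list median as a black bar and the median of all tested genes as a dotted line. The naive pluripotency median lies at 1.02 and the Zscan4 median at -5.32, against 0.01 for all genes.

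Pluripotency genes were higher in DKO after RA. Of 18 tested genes of naive pluripotency, 14 were higher and 1 lower, with a median of 1.02, and in serum/LIF, where 33.2% of all genes passed, 17.8% higher and 15.4% lower, the same list had 1 higher and 10 lower. Of 14 genes of the core network, 12 were higher and 1 lower, with a median of 0.44. Both counts were equal without replicate 2 of WT. Fbxo15 was the lower member of the first list (log2 fold change -0.23, SE 0.06, adjusted p = 0.0029) and Dppa4 of the second (log2 fold change -0.52, SE 0.05, adjusted p = 1.5e-08). The Fbxo15 call was lost with the RA libraries alone (adjusted p = 0.11).

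Pou5f1, which encodes the factor OCT4, had 419.7, 466 and 398 in WT and 1220.2, 1270.1 and 1201 in DKO. The groups did not overlap, and DKO was 2.88-fold higher (log2 fold change 1.52, SE 0.05, adjusted p = 2.4e-17). In serum/LIF its means were 33444 and 30891, so that the level after RA was a small part of the undifferentiated level in both genotypes. Esrrb, an orphan nuclear receptor of the naive network, had 185, 189 and 168 in WT and 420, 509 and 390.2 in DKO, again without overlap (log2 fold change 1.27, SE 0.07, adjusted p = 1.5e-12). Tfcp2l1, a transcription factor downstream of LIF, was lower in DKO in serum/LIF (log2 fold change -0.98, adjusted p = 3.6e-12) and higher after RA, at 494, 456 and 502 in WT against 922, 874 and 965, and the 2 differences themselves differed by 1.90 (SE 0.08, adjusted p = 3.4e-14). Tet2, a 5-methylcytosine oxidase, had the same pair of directions, with 1042, 996 and 1199.5 in WT and 1490.4, 1536 and 1562 in DKO after RA. In bulk RNA, more cells that keep such a transcript and more transcript per cell cannot be told apart.

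Other genes of the undifferentiated cell went the same way. Tdh, the threonine dehydrogenase of embryonic stem cells, had 54.04, 53.2 and 43.1 in WT and 109, 116 and 87.7 in DKO. L1td1, an RNA-binding protein, had 724, 650.3 and 755 and 1006, 1098 and 1020.2, and Dppa2 had 471, 426 and 474 and 862, 839 and 785. No pair of groups overlapped, and the log2 fold changes were 1.04, 0.55 and 0.86 (adjusted p = 2.4e-09, 2.1e-09 and 9.9e-12). Hmga2, a chromatin protein of growing embryonic cells and a target of the microRNA let-7, rose from 1266, 1111 and 1259 in WT to 2566, 2569.6 and 2638 in DKO (log2 fold change 1.10, SE 0.07, adjusted p = 2.3e-12). Of the Lin28 pair, which block maturation of let-7, Lin28a was higher (log2 fold change 0.33, SE 0.04, adjusted p = 7.6e-08) and Lin28b lower (log2 fold change -0.34, SE 0.05, adjusted p = 2.1e-05).

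The signals that hold or end pluripotency moved in part. Of 12 genes of LIF and STAT3 signalling, 4 were higher and 3 lower, and 4 and 5 without replicate 2 of WT. Il6st, the shared receptor chain GP130, had 6388, 6192 and 7285 in WT and 4633, 4468 and 4641 in DKO. Socs3, the feedback inhibitor of that receptor, had 4205, 4504 and 4307 in WT and 2082, 2084 and 1964 in DKO. The Socs3 groups were far apart (log2 fold change -1.09, SE 0.04, adjusted p = 2.2e-15), whereas the ligand gene Lif, at 494, 554 and 540.1 in WT and 607, 579.5 and 568 in DKO, did not pass the test (adjusted p = 0.25). The kinase gene Pim1, a STAT3 target, went the other way (log2 fold change 0.76, SE 0.06, adjusted p = 9.2e-11).

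Genes of the FGF pathway were mostly higher. Of 22 tested ligands, receptors, ETS factors and feedback inhibitors, 15 were higher and 1 lower (median 0.74). Without replicate 2 of WT the counts were 14 and 2. In serum/LIF they were 8 and 5. Among ligands, Fgf4, made by pluripotent cells, had 66.7, 64.2 and 57.4 in WT and 185, 204 and 169 in DKO, and Fgf17 was also higher (log2 fold change 1.46, SE 0.28, adjusted p = 0.00016). Among receptors, Fgfr1 was higher (log2 fold change 0.31, SE 0.04, adjusted p = 1.5e-07), Fgfr3 was the single lower member (log2 fold change -0.74, SE 0.17, adjusted p = 0.0012), and Fgfr2 did not pass the test, at 4124, 3938 and 4406 and 3772, 3695 and 3784 (adjusted p = 0.077). Fgfr2 depended on the fit: it was called lower with the RA libraries alone (adjusted p = 0.01) and without replicate 2 of WT (adjusted p = 0.047).

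Genes that the pathway is known to induce were among the higher ones. Etv5, an ETS factor and a standard readout of FGF signalling, had 303, 251 and 251 in WT and 785, 804 and 731 in DKO (log2 fold change 1.53, SE 0.06, adjusted p = 1.6e-15). Il17rd, a membrane inhibitor of FGF receptors, had 740.4, 837 and 816 in WT and 2605, 2812 and 2811 in DKO, 3.44-fold higher (log2 fold change 1.78, SE 0.05, adjusted p = 1.5e-17). Spry1, an inhibitor of the RAS step, had 341, 381 and 320.3 and 733, 809 and 803. The groups of all 3 genes were apart. Dusp6, the ERK phosphatase, rose less, from 979.9, 904 and 911 to 1313, 1393 and 1325 (log2 fold change 0.53, SE 0.05, adjusted p = 2.1e-08). For Etv5 the difference was in the other direction in serum/LIF, with means of 15505 in WT and 11006 in DKO, and the interaction was 2.02 (SE 0.09, adjusted p = 2.1e-14). The interaction, the test of whether the genotype difference after RA departs from that in serum/LIF, was passed by 30.8% of all genes, 14.8% above 0 and 16.0% below, and by 13 and 5 genes of this list.

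Of 24 genes of BMP and Nodal signalling, 11 were higher and 4 lower (9 and 3 without replicate 2 of WT). Nodal, the ligand that patterns the early embryo, had 272, 327 and 244 in WT and 892, 872 and 827 in DKO. Its target and inhibitor Lefty2 had 142, 114 and 148 and 431, 512 and 392, and follistatin (Fst), which binds activin, had 74.8, 67.2 and 61.01 and 197, 225 and 216. All 3 were higher in DKO without overlap, by 1.63, 1.72 and 1.64 on the log2 scale (adjusted p = 2.6e-13, 6.3e-12 and 3.2e-08). The BMP readouts Id1 and Id3 were lower, Id1 at 1920.2, 2081 and 1732 in WT and 994, 993 and 1006 in DKO (log2 fold change -0.93, SE 0.11, adjusted p = 4.1e-07) and Id3 with a log2 fold change of -0.54 (adjusted p = 1.8e-08). Wnt genes went both ways, with 9 of 32 higher and 8 lower. Wnt8a, a ligand of the primitive streak, had 9.91, 24.1 and 12.6 in WT and 83.4, 79.9 and 91.3 in DKO (log2 fold change 2.47, SE 0.27, adjusted p = 5.7e-08), and the secreted inhibitor Sfrp1 had 2662, 2923 and 2580.3 and 1332, 1445 and 1374 (log2 fold change -0.97, SE 0.05, adjusted p = 9.1e-13).

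**Figure D2:**
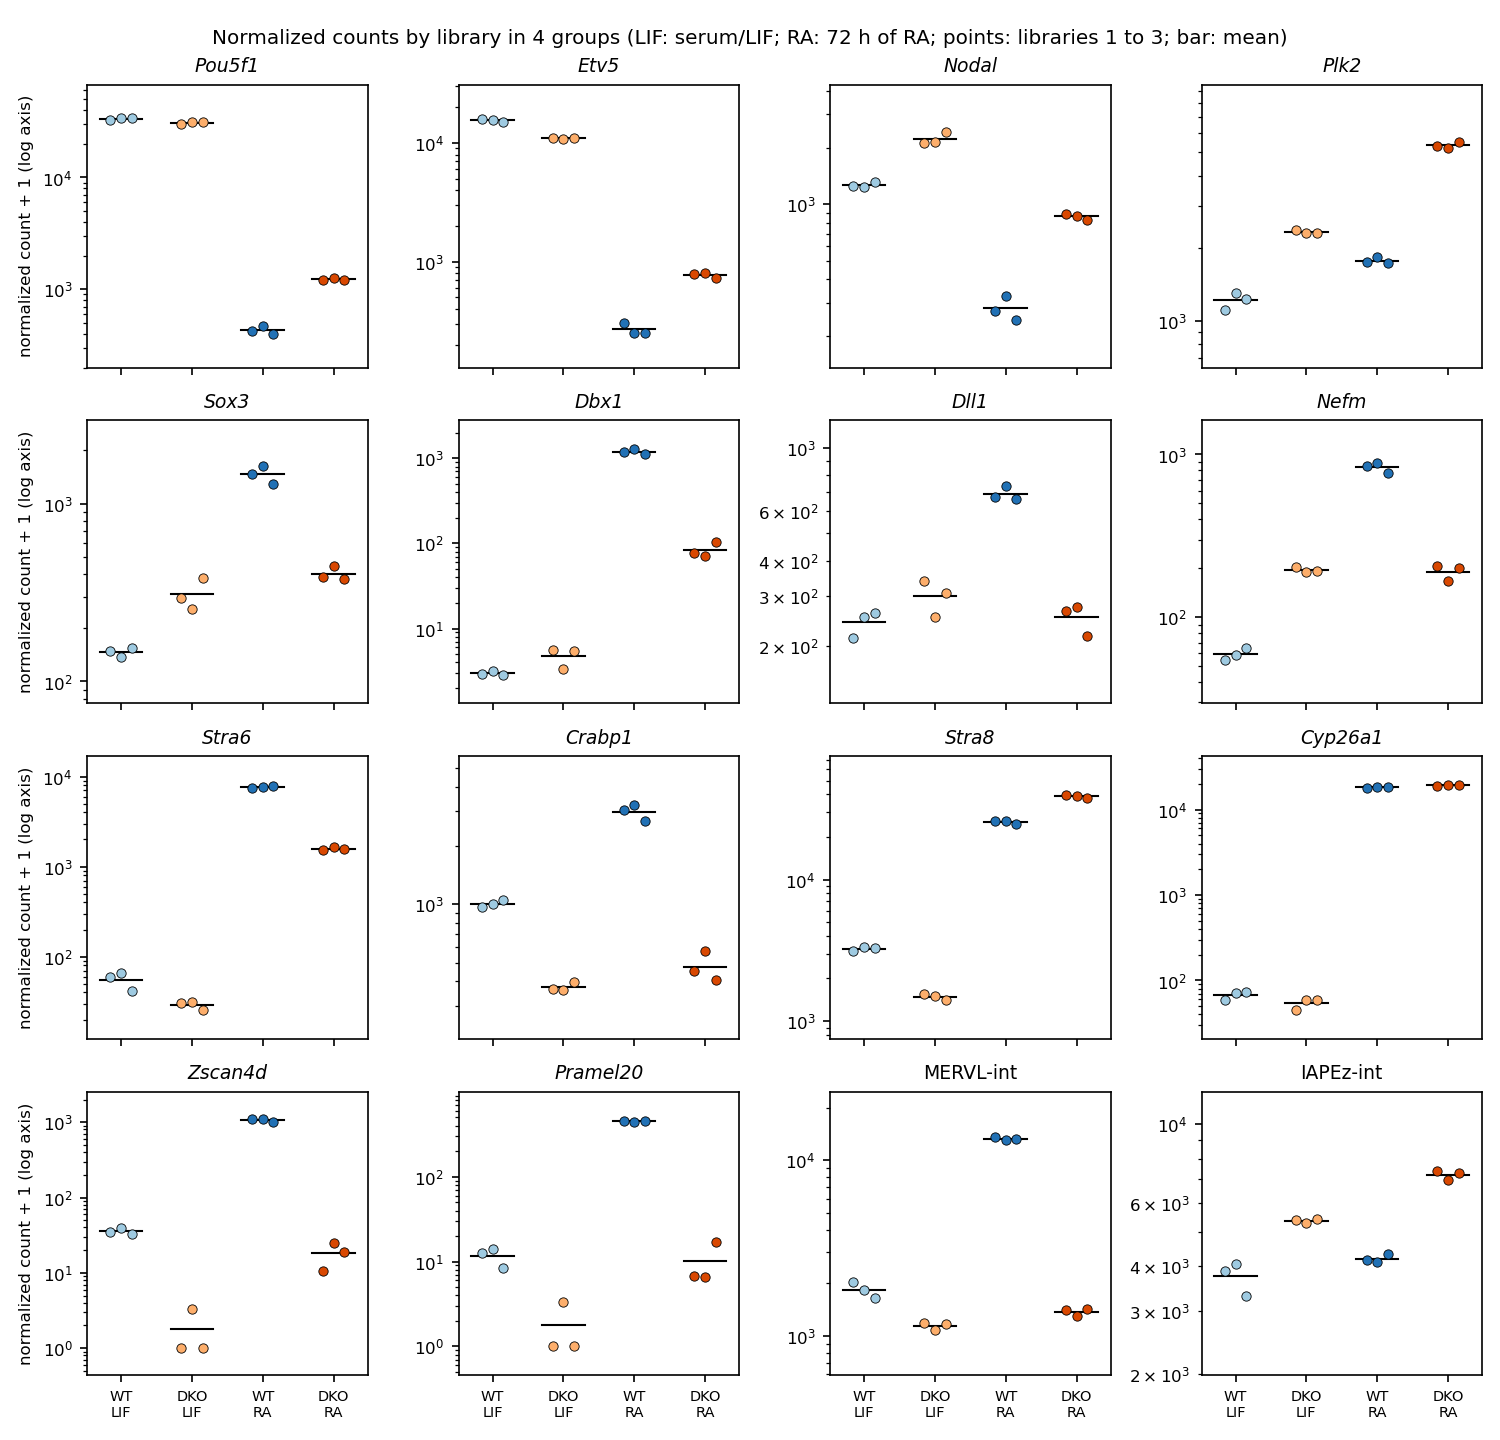
Normalized counts plus 1 (log axis) of 14 genes and 2 repeats in each of the 12 libraries, with 1 point per library and the group mean as a bar; blue is WT, orange is DKO, and the darker points are RA libraries. Pou5f1, Etv5, Nodal and Plk2 lie higher in DKO after RA, Sox3, Dbx1, Dll1 and Nefm lie lower, and Cyp26a1 lies between 18035 and 19419 in both genotypes after RA.

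Neural progenitor genes were lower in DKO after RA. Of 23 tested genes, 16 were lower and 5 higher, with a median of -1.12, and the counts were equal without replicate 2 of WT. In serum/LIF the list went the other way, with 13 higher and 2 lower and a median of 0.59. The interaction was below 0 in 20 and above 0 in 2. Sox3, a factor of the early neural plate, had 1474, 1619.7 and 1284 in WT and 386, 442 and 373 in DKO, 3.65-fold lower without overlap (log2 fold change -1.86, SE 0.12, adjusted p = 1.9e-11). Its serum/LIF means were 145 in WT and 308 in DKO, and the interaction was -2.92 (SE 0.18, adjusted p = 7.5e-12).

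Several factors of neural progenitors were lower by wide margins. Pou3f2 (Brn2), a POU factor, had 670.1, 777 and 698 in WT and 81.5, 91.8 and 75.2 in DKO (log2 fold change -3.10, SE 0.34, adjusted p = 1.2e-07). Rfx4, a factor of the neural tube, had 522, 385 and 418 in WT and 58.8, 58.8 and 89.5 in DKO (log2 fold change -2.68, SE 0.23, adjusted p = 1.1e-09). Hes5, the main target of Notch in neural progenitors, had 480.1, 588 and 437 and 49.3, 68.9 and 71.6 (log2 fold change -2.98, SE 0.35, adjusted p = 2.8e-07). In none of the 3 did the groups overlap. The glial glutamate transporter Slc1a3 was lower at 1208, 1319.6 and 1223 in WT and 576, 543 and 518 in DKO, and the growth factor Ptn at 1042, 1054 and 1032 and 387, 429.8 and 325. The filament genes Nes and Vim, which other growing cells also express, were higher instead (log2 fold change 0.39, SE 0.04, adjusted p = 2.7e-08 for Nes and log2 fold change 0.35, SE 0.03, adjusted p = 1.7e-08 for Vim). Sox9 did not pass the test, at 1548, 1508 and 1602 in WT and 1441, 1582 and 1473 in DKO (adjusted p = 0.79).

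Notch genes went both ways. Of 23 Notch and proneural genes, 11 were lower and 5 higher. Among receptors, Notch1 did not pass the test (adjusted p = 0.12), while Notch2 had 3419, 3185 and 3726 in WT and 5270.3, 5535 and 5461 in DKO and Notch3 4380, 4424 and 4586 and 6597, 6662 and 6669.5, both higher. Dll1, the ligand shown by newborn neurons, had 671, 732 and 657 in WT and 266, 275 and 216 in DKO (log2 fold change -1.45, SE 0.12, adjusted p = 1.4e-09). Lfng, which modifies Notch receptors, had 292, 293 and 299 in WT and 54.99, 54.2 and 70.7 in DKO, 4.91-fold lower (log2 fold change -2.29, SE 0.14, adjusted p = 3.9e-12). The groups of both genes were well apart, and the proneural factors Neurod1 and Neurog1 were lower too (-1.40 and -1.66, adjusted p = 1.3e-07 and 3.4e-07).

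Factors that divide the neural tube into territories along its back-to-belly axis were more often lower than higher, 14 against 8 of 35 (median -0.47). Without replicate 2 of WT the counts were 13 and 7. In the intermediate territory, Dbx1 had 1195, 1284 and 1116 in WT and 75.8, 69.8 and 104 in DKO (log2 fold change -3.85, SE 0.31, adjusted p = 5.5e-10). In the dorsal territory, Pax7 had 191, 148 and 157 in WT and 17.1, 16.5 and 17.9 in DKO, and Pax3 197, 216 and 196 and 60.7, 65.2 and 95.8. All 3 were lower without overlap, with log2 fold changes of -3.19 for Pax7 and -1.47 for Pax3 (adjusted p = 3.9e-07 and 0.00069). Gli1 and Olig2, which belong to the ventral side where Hedgehog signals, were higher. Gli1, a direct Hedgehog target, had 139.6, 108 and 78.95 in WT and 355, 408 and 440.3 in DKO (log2 fold change 1.90, SE 0.14, adjusted p = 1.5e-10). In serum/LIF its means were 612 in WT and 714 in DKO, above both groups after RA. Olig2, which marks motor neuron progenitors, had 5.404, 2.01 and 0 and 11.4, 11.02 and 8.95 (log2 fold change 2.09, SE 0.42, adjusted p = 0.00048), on 8 reads over WT and 34 over DKO. Lmx1b, a roof plate and hindbrain factor, was higher (log2 fold change 1.30, SE 0.17, adjusted p = 7.7e-07), whereas its paralogue Lmx1a was lower (log2 fold change -2.87, SE 0.49, adjusted p = 4.1e-05).

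Genes of postmitotic neurons followed the progenitors. Of 28 neuronal subtype factors, 11 were lower and 4 higher, and 10 and 3 without replicate 2 of WT. Lhx5, of dorsal interneurons, had 147, 183 and 124 in WT and 26.6, 23.9 and 41.2 in DKO (log2 fold change -2.29, SE 0.33, adjusted p = 5.6e-06). Pou4f1, of sensory neurons, had 318, 306 and 298 and 99.5, 120.3 and 80.5 (log2 fold change -1.63, SE 0.17, adjusted p = 2.8e-08). The 2 groups were apart in both. Gata3 was higher, at 1107, 1112 and 1192 in WT and 1583, 1779 and 1765 in DKO (log2 fold change 0.59, SE 0.12, adjusted p = 0.00039). Of 27 genes of the neuronal cytoskeleton and growth cone, 16 were lower and 6 higher (median -0.42), against 4 lower and 13 higher in serum/LIF. The interaction was below 0 in 19 and above 0 in 3. Nefm, the medium neurofilament, had 854, 880.1 and 772 in WT and 205, 166 and 199 in DKO (log2 fold change -2.13, SE 0.13, adjusted p = 4.4e-12), and Elavl3, a neuronal RNA-binding protein, 485, 529.9 and 440.5 and 172, 179 and 195 (log2 fold change -1.41, SE 0.10, adjusted p = 7.7e-11). Stmn2, a growth cone protein, rose from 360.3, 420.5 and 310.4 in WT to 649, 641 and 653 in DKO (log2 fold change 0.84, SE 0.08, adjusted p = 6.5e-09). The cells already express it in serum/LIF, as they do Elavl3, with WT means there of 8063 and 673.5.

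Lists near neurons in function went both ways. Of 36 axon guidance genes, 13 were higher and 11 lower, and without replicate 3 of WT 7 were lower. Robo2, a receptor for Slit, had 775, 754 and 862 in WT and 467, 351 and 425 in DKO after RA and means of 15.1 and 116 in serum/LIF. The directions were opposite and the interaction was -3.83 (SE 0.25, adjusted p = 2.9e-11). Efnb2, an ephrin, was higher at 7087, 6708 and 7701 in WT and 13703, 13901 and 13944 in DKO (log2 fold change 0.95, SE 0.05, adjusted p = 4e-14). Ion channel subunits had 7 higher and 5 lower of 35 with a median of -0.13, and 8 and 3 with a median of 0.17 without replicate 2 of WT, the library in which 30 of them were above its replicates. Some members passed the filter on low counts only through 1 RA group. Of the 29 that did not need 1 RA group to pass, 7 were higher and 3 lower, with a median of 0.05. The list of REST and its neuronal targets had 4 higher and 9 lower of 24, and 4 and 7 without that library. Snap25, a synaptic fusion protein in it, had 45.9, 293 and 48.5 in WT and 5.69, 3.67 and 7.16 in DKO, so that replicate 2 of WT was far above the others, though the groups did not overlap (adjusted p = 9.5e-06, and 0.00011 without it). Vgf, a secreted neuropeptide precursor and REST target, was higher (log2 fold change 1.92, SE 0.10, adjusted p = 1.8e-13). What sets replicate 2 apart was not tested.

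Markers of other lineages moved beside the neural genes. Over 6 fibroblast and smooth muscle markers, 4 were higher, and their summed normalized counts were 31245 to 31973 in WT and 41340 to 43710 in DKO, with no marker at 0. Col1a1, Acta2 and Col3a1 made up most of these sums, while Lum and Dcn, which were not called, lay below all WT values, at 15.2 to 16.5 against 28.8 to 41.3 and 307 to 335 against 349 to 425. Over 4 primitive endoderm markers, 3 were higher, with sums of 1728 to 1986 and 2292 to 2447. Gata6, which was not called, lay below all WT values, at 832 to 949 against 994 to 1131. Over the 5 markers of embryonic stem cells, all 5 were higher, with sums of 3567 to 3705 and 5571 to 6088. Both markers of neural crest were lower, from 75.7 to 102 in WT and 35.8 to 43.6 in DKO, but of the 15 genes of the longer neural crest list 3 were higher, 5 lower and 7 not called (median -0.11). The part of these cells in the neural result was not tested.

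**Figure D3:**
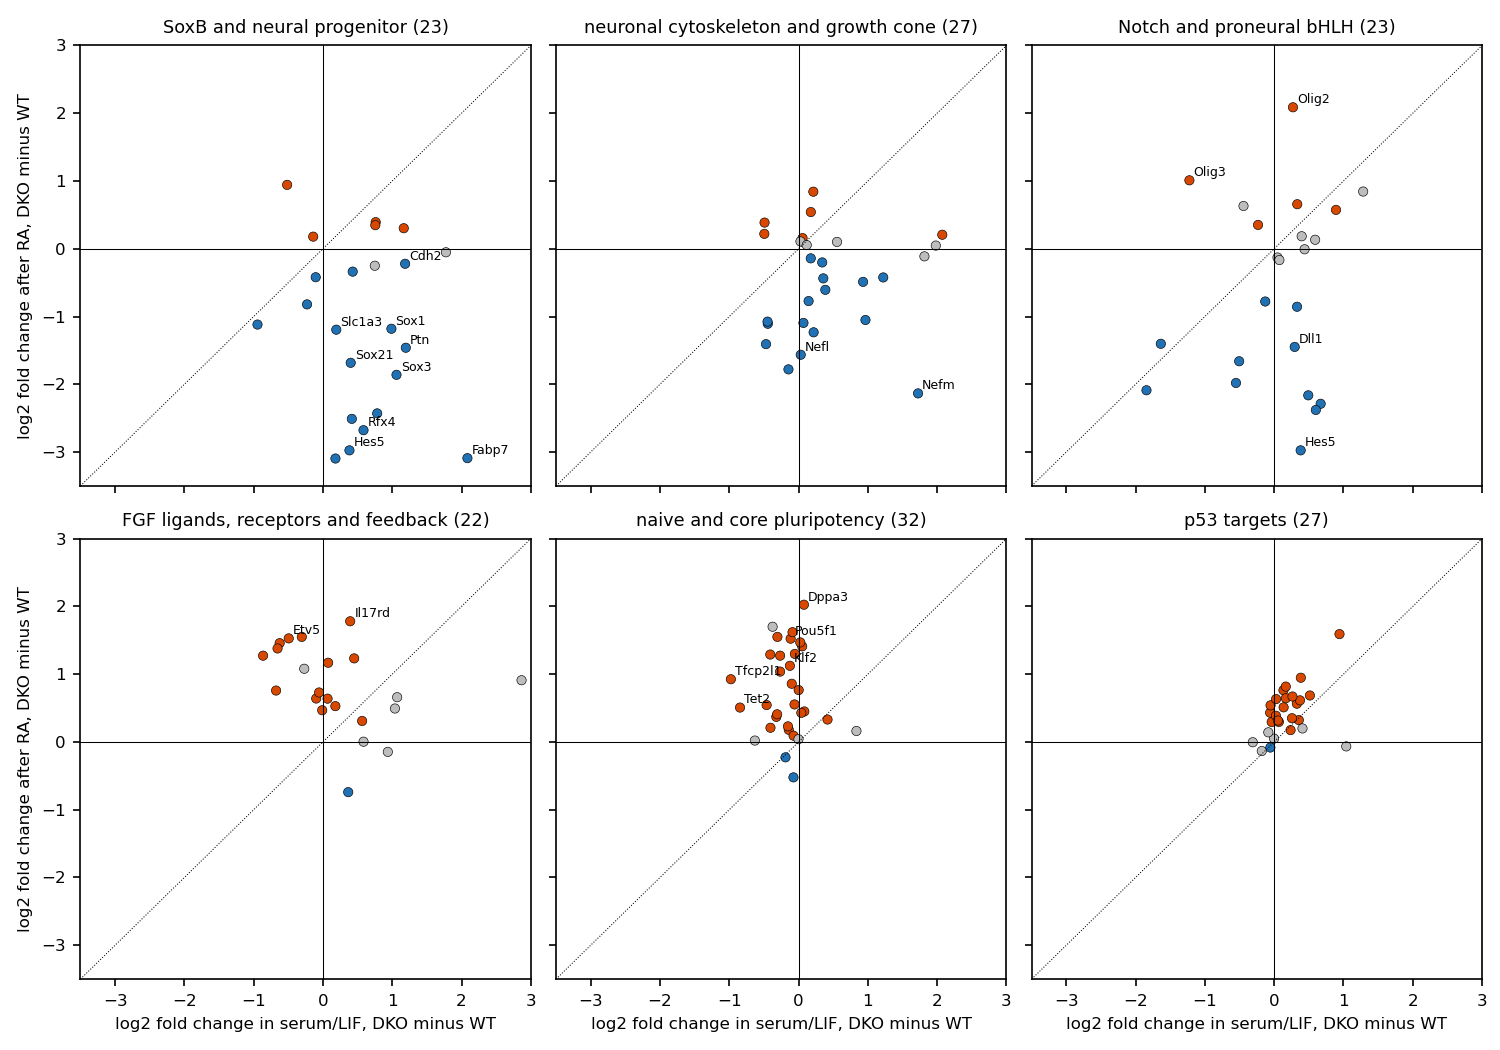
Log2 fold change (DKO minus WT) after RA against that in serum/LIF for each tested gene of 6 groups of lists; colour gives the call after RA (orange higher, blue lower, grey not called), the dotted line marks equal differences, and a part of the genes is named. Neural progenitor genes lie mostly to the right of 0 and below it, with Fabp7 at 2.08 and -3.09, and FGF and pluripotency genes lie mostly above 0.

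The RA pathway itself was split. Of 14 receptors, coregulators and binding proteins, 4 were higher and 6 lower. Rara, an RA receptor, had 3901, 3971 and 3993 in WT and 5084, 5066 and 5018 in DKO (log2 fold change 0.35, SE 0.05, adjusted p = 2.3e-06), and Rarb had 2553, 2383 and 2625 and 3257, 3179 and 3551. The Rarb groups did not overlap, but its adjusted p was 0.36 with the spread taken over all 12 libraries and 6.9e-07 with the 6 RA libraries alone. Crabp1, a cellular RA-binding protein, had 3067, 3235 and 2674 in WT and 449, 575 and 404 in DKO (log2 fold change -2.66, SE 0.10, adjusted p = 8.8e-16). Fabp5, another carrier of RA, had 1154, 1074 and 963 and 503, 568 and 515 (log2 fold change -1.004, SE 0.07, adjusted p = 7.8e-11). Crabp2 was higher (log2 fold change 0.37, SE 0.05, adjusted p = 5.4e-06), so the carriers did not share a direction.

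Of 14 genes of retinoid metabolism and transport, 3 were higher and 3 lower, and 5 and 5 with the RA libraries alone, a fit that called 46.7% of all genes (23.8% higher and 23.0% lower). Stra6, the membrane receptor that takes up retinol, had 7483, 7621 and 7905 in WT and 1535, 1632 and 1582 in DKO (log2 fold change -2.28, SE 0.13, adjusted p = 1.2e-12). Dhrs3, which turns retinaldehyde back into retinol, had 8448, 8367 and 7841 and 5311, 5462 and 5478 (log2 fold change -0.60, SE 0.15, adjusted p = 0.0028). Both were lower in every DKO library than in any WT library. Cyp26a1, which breaks RA down, did not pass the test (log2 fold change 0.08, SE 0.09, adjusted p = 0.54), with an adjusted p of 0.055 in the RA libraries alone. Stra8 rose from 25809.7, 25949.8 and 24602 to 39373, 39012 and 37800.4 (log2 fold change 0.61, SE 0.04, adjusted p = 2.7e-11), although in serum/LIF it was lower in DKO (means of 3242 and 1488). Of the synthesis enzymes, Aldh1a2 was lower, at 219, 211 and 255 and 180.1, 137 and 148, and Aldh1a3 higher, at 5.404, 2.01 and 1.79 and 11.4, 16.5 and 14.3 (adjusted p = 0.012 and 0.0026). The Aldh1a2 call was lost without replicate 3 of WT or replicate 2 of DKO.

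The promoters of 73 gene symbols held the direct repeat described above. Of these, 24 were tested, and 7 were higher and 4 lower (45.8% called, beside 42.7% of all genes), so that genes with these letters near their start were called about as often as others.

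Hox genes give cells their position along the body axis. Of 39 listed genes 32 were tested, 8 were lower in DKO and 1 higher, and the median was -0.42. That is 28.1% called, fewer than the 42.7% of all genes, and the count of lower Hox genes depended on the fit. These genes are near silent in serum/LIF, where their spread on the log scale is wide, and with the RA libraries alone, where 46.7% of all genes were called (23.8% higher and 23.0% lower), 20 were lower and 7 higher. EdgeR on the recovered reads, which called 45.1% of all genes (22.6% higher and 22.4% lower), gave 20 lower and 4 higher. Hoxb5 shows the difference between the fits: it had 5737, 6269.9 and 5819 in WT and 8079, 8300.4 and 8337 in DKO, with an SE of 0.42 over 12 libraries and 0.04 over the 6 RA libraries (adjusted p = 0.41 and 1.1e-09). In 7 tested genes all DKO values were above all WT values and in 19 below.

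The clusters were split by the fit on the RA libraries alone. In it, Hoxa had 7 of 9 tested genes lower and 1 higher, Hoxb 6 of 10 lower and 2 higher, Hoxc 3 of 7 lower and 3 higher, and Hoxd 4 of 6 lower and 1 higher. The higher genes were Hoxa4, Hoxb4, Hoxc4, Hoxb5, Hoxc5, Hoxc13 and Hoxd1, most of them of paralogue groups 4 and 5, where Hoxa5 and Hoxd4 were lower. Hoxc5 had 3034, 3292 and 3048 in WT and 4845, 5149 and 4692 in DKO (adjusted p = 0.57 over 12 libraries and 5.8e-11 over 6). Hoxa6, Hoxb6 and Hoxc6, the tested genes of the sixth group, were lower in it, as were Hoxa7, Hoxb7, Hoxb8, Hoxc8, Hoxd8, Hoxa9, Hoxb9 and Hoxc9. These paralogue groups were compared after their values were seen.

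Single genes fell further. Hoxd3 had 787, 797 and 701 in WT and 178, 229.6 and 179.9 in DKO, 3.89-fold lower (log2 fold change -1.96, SE 0.37, adjusted p = 0.00015). Hoxa6 had 343, 357 and 371 and 64.5, 89.1 and 73.4 (log2 fold change -2.24, SE 0.56, adjusted p = 0.0024), and Hoxb8 7399, 7653 and 6761 and 3707, 4114 and 3898 (log2 fold change -0.90, SE 0.15, adjusted p = 3.6e-05). All 3 pairs of groups were apart. Hoxb2 differed less, at 8060.1, 8935 and 7928 and 7566, 7769 and 7219 (adjusted p = 0.36, and 0.011 with the RA libraries alone). Of 13 TALE cofactors, which bind DNA with Hox proteins, and related factors, 5 were higher and 3 lower. Meis1 had 8056, 7751 and 8128 in WT and 5916, 6202 and 6419.8 in DKO (log2 fold change -0.37, SE 0.08, adjusted p = 0.00051), while Cdx1, a regulator of Hox genes, was higher at 184, 182 and 143 and 409, 376 and 311 (log2 fold change 1.11, SE 0.20, adjusted p = 9.2e-05).

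**Figure D4:**
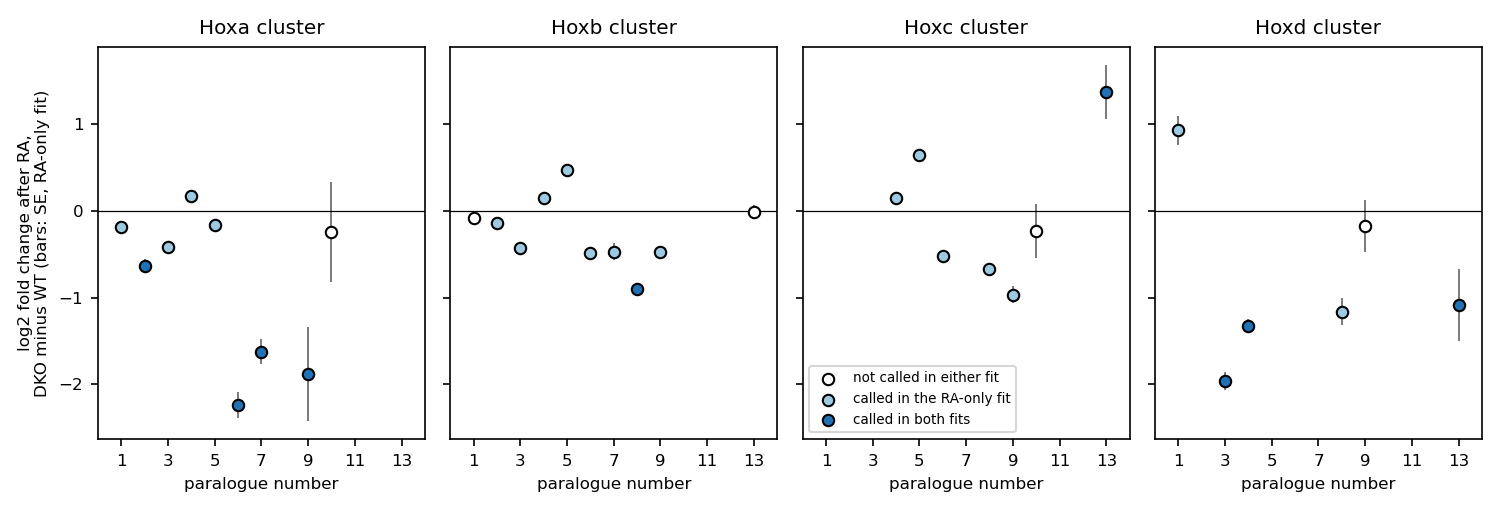
Log2 fold change after RA (DKO minus WT) of 32 tested Hox genes by cluster and paralogue number, with the SE of the fit on the RA libraries alone; dark points passed the test in both fits, pale points with the RA libraries alone and white points in neither. Hoxa6 lies at -2.24, Hoxd3 at -1.96 and Hoxc13 at 1.37.

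The lists of genes of the 2-cell-like state had the lowest medians of the 44 plotted. All 5 tested Zscan4 genes were lower in DKO after RA, with a median of -5.32. Of 36 other listed genes 19 were tested, 16 were lower and 2 higher, with a median of -3.79, and in serum/LIF 10 were lower and 1 higher. Of the 19, 10 passed the filter on low counts only through WT after RA, and had to be lower to be called. Of the other 9, 6 were lower and 2 higher (median -3.28). The higher ones were Eif1a (log2 fold change 0.17, SE 0.04, adjusted p = 0.002) and Zfp750 (log2 fold change 0.30, SE 0.12, adjusted p = 0.0496), the latter a call lost under 10 of 16 alternatives, among them the RA libraries alone, the replicate block and leaving out replicate 1 or 2 of WT or of DKO (adjusted p = 0.13 without replicate 2 of WT). Zscan4 proteins lengthen telomeres in embryonic stem cells. Because the copies are nearly alike, the split of reads among them is uncertain, and how multi-mapping reads were counted is not stated in the sources used here.

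Zscan4d, on chromosome 7 from 11161643 to 11166148 of GRCm38.p6 (minus strand), had 1107, 1103 and 999 in WT and 9.48, 23.9 and 17.9 in DKO, 62.6-fold lower (log2 fold change -5.97, SE 0.42, adjusted p = 3.6e-11). Zscan4c had 1179.9, 1225 and 1154 in WT and 37.9, 25.7 and 34.9 in DKO (log2 fold change -5.15, SE 0.60, adjusted p = 1.9e-05). Zscan4f had 651, 677 and 721 and 18.96, 16.5 and 13.4 (log2 fold change -5.32, SE 0.39, adjusted p = 8.5e-11). No DKO library came near a WT library. In serum/LIF, before RA, the WT means were 34.6, 66.1 and 35.7, so each WT library after RA was far above that level and each DKO library below it. The DKO means in serum/LIF were already lower, at 0.782, 4.55 and 1.51, and all 5 tested Zscan4 genes were called lower there (median -4.20). The interaction did not pass the test for Zscan4d, at -1.40 (SE 0.59, adjusted p = 0.073), or for Zscan4c, at -1.06 (SE 0.85, adjusted p = 0.39).

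Tcstv3 and Zfp352 passed the filter on low counts only through their WT values after RA, so their difference is a description. Tcstv3 had 87.4, 100.4 and 91.5 in WT and 0, 0 and 5.37 in DKO, and Zfp352 78.4, 58.2 and 80.8 and 1.90, 0 and 8.95. Tmem92 had 358, 316 and 315 and 14.2, 16.5 and 25.1, and Arg2, an arginase, 167, 183 and 151 and 18.96, 22.04 and 17.9. All 4 had DKO values below all WT values, with log2 fold changes of -5.66, -4.57, -4.11 and -3.02. The PRAME-like family was not counted as a whole, and Pramel20, Pramel31 and Pramel39 were among the 10 lower genes of largest log2 fold change. Pramel20 had 458, 442 and 456 in WT and 5.69, 5.51 and 16.1 in DKO (log2 fold change -5.64, SE 0.51, adjusted p = 3.8e-09), and Pramel31 had 182, 225 and 206 and 3.79, 1.84 and 3.58 (log2 fold change -5.69, SE 0.55, adjusted p = 9.2e-09), the latter tested only through its WT values after RA. For both the interaction was also below 0, at -2.72 (SE 0.73, adjusted p = 0.006) and -2.13 (SE 0.77, adjusted p = 0.04). In serum/LIF Pramel20 had 32 reads in WT and 2 in DKO, and Pramel31 had 36 and 0. The floor thus bounded the serum/LIF differences, so these 2 interactions are a description.

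The repeats of the same state were lower as well. Of 1387 repeat names 1170 were tested, and 129 passed, 64 (5.47%) higher and 65 (5.56%) lower. Without replicate 2 of WT, 9.23% passed, and 55 (4.70%) were higher and 53 (4.53%) lower. Of 15 listed ERVL repeats 5 were lower. MERVL-int, the inner part of the MERVL retrovirus, had 13516, 13136 and 13190.3 in WT and 1402, 1296 and 1409 in DKO, 9.70-fold lower (log2 fold change -3.28, SE 0.06, adjusted p = 5.2e-24). MT2_Mm, its promoter repeat (LTR), had 2036, 2119.5 and 1816 and 390.2, 396 and 433 (log2 fold change -2.29, SE 0.07, adjusted p = 2.9e-18). The groups were far apart in both. Of the older relatives, MT2B1 was lower (log2 fold change -0.64, SE 0.05, adjusted p = 5.2e-11), and MT2A, MT2B and MT2C_Mm did not pass the test (adjusted p = 0.071, 0.38 and 0.1). In serum/LIF, WT and DKO means of MERVL-int were 1819 and 1137, and the interaction was -2.61 (SE 0.08, adjusted p = 4.4e-18), a test passed by 6.67% of repeats, 2.82% above 0 and 3.85% below.

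IAP and LINE-1 elements are held silent by DNA methylation and histone marks. Of 9 IAP repeats 4 were higher and 1 lower (median 0.45). IAPEz-int had 4179.9, 4122 and 4324 in WT and 7378, 6963 and 7273 in DKO (log2 fold change 0.78, SE 0.05, adjusted p = 3.8e-10), and IAPEy-int was the lower one, at 99.9, 106 and 97.2 and 53.5, 47.4 and 53.3 (log2 fold change -0.96, SE 0.25, adjusted p = 0.012), a call lost without replicate 2 of DKO. Of 12 listed LINE-1 repeats 7 were higher and 0 lower (median 0.14), but over the whole LINE-1 family 15 were higher and 4 lower of 126 tested (median 0.04), so most did not pass the test. L1Md_T, of a young mouse family, had 11243, 11877 and 11512 in WT and 21321, 20346 and 20242 in DKO (log2 fold change 0.84, SE 0.04, adjusted p = 1.9e-12), and L1Md_Gf 319, 356 and 366 and 746, 680.1 and 634 (log2 fold change 0.98, SE 0.12, adjusted p = 2e-06). Both pairs were apart, while Lx8, an old family, had 4372, 4484 and 4376 and 4502, 4326 and 4449.5 (adjusted p = 0.95).

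Among ERV1 repeats the direction differed by element. MMERGLN-int rose from 38067, 36292 and 37204 to 59678, 58418 and 58571 (log2 fold change 0.66, SE 0.04, adjusted p = 2.7e-09), and MMVL30-int, of the VL30 elements, fell from 12086, 11562 and 11657 in WT to 6654, 6149 and 6577 in DKO (log2 fold change -0.87, SE 0.05, adjusted p = 1.3e-13). RLTR6_Mm, the LTR of VL30, fell with it (log2 fold change -1.08, SE 0.11, adjusted p = 9.7e-08). The 12 SINE repeats had a median of -0.01, and B3, an abundant one, had 56080.1, 53715 and 55809.9 in WT and 55297, 55163 and 55959 in DKO and did not pass the test (adjusted p = 0.89). GSAT_MM, the major satellite, was lower at 204, 155 and 175 in WT and 76.2, 40.3 and 46.6 in DKO (log2 fold change -1.74, SE 0.22, adjusted p = 2.2e-06). With the size factors of the gene table in place of the repeat table, 80 repeats were higher and 37 lower, the median of all repeats moved from 0.01 to 0.07, and the direction of each repeat named here held.

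**Figure D5:**
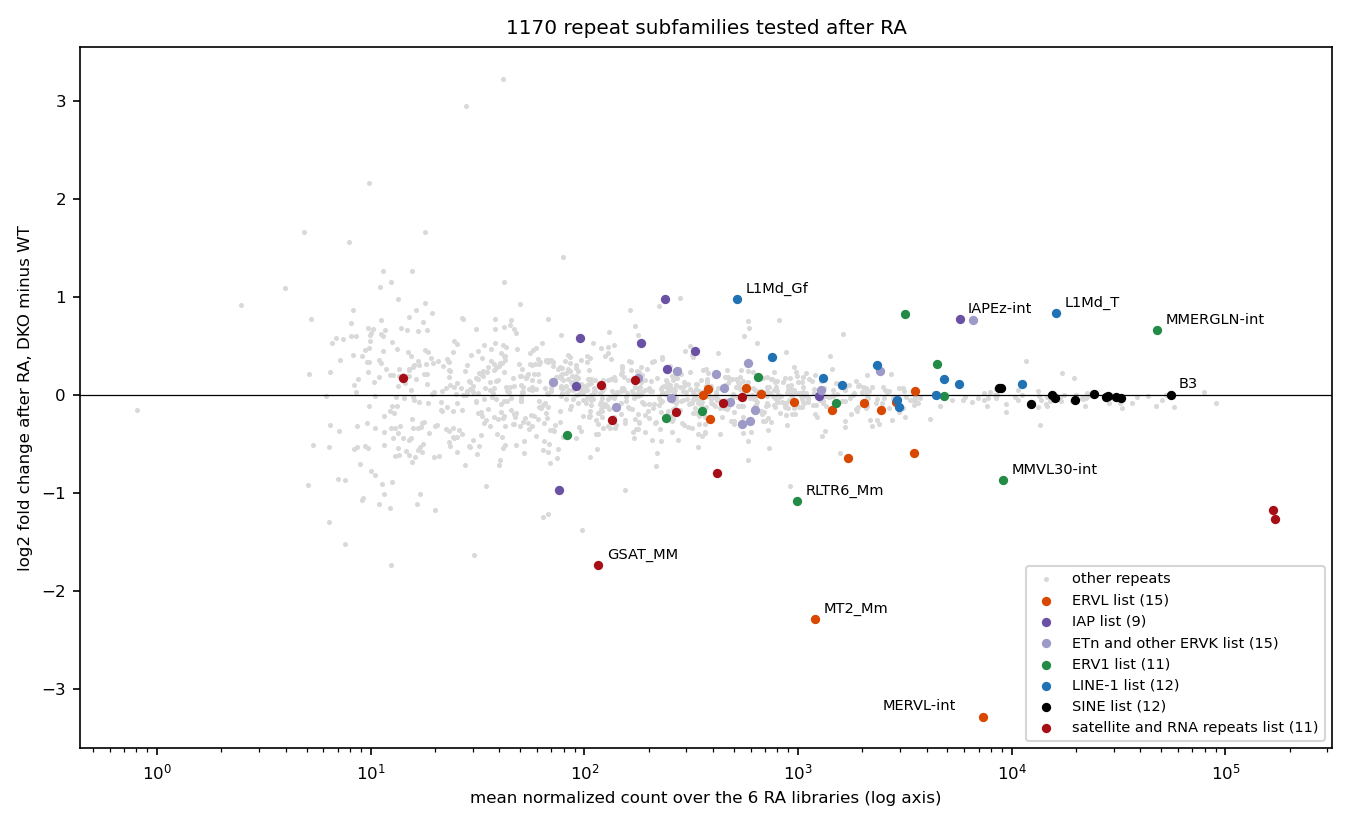
Log2 fold change after RA (DKO minus WT) of 1170 tested repeats against their mean normalized count over the 6 RA libraries (log axis), with 7 lists in colour. MERVL-int and MT2_Mm lie at -3.28 and -2.29, L1Md_T and IAPEz-int at 0.84 and 0.78, and the SINE points lie near 0.

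Imprinted genes went both ways. Of 29 tested, 9 were higher and 11 lower, with a median of 0.01, and single genes changed by large amounts. Igf2, a fetal growth factor, had 29754, 28350.2 and 30259.5 in WT and 11309, 10893 and 10601 in DKO (log2 fold change -1.43, SE 0.05, adjusted p = 5.7e-16). Dlk1, an inhibitor of differentiation from the same class of paternally expressed genes, had 13634, 14946 and 13905 in WT and 1104, 1170 and 1049 in DKO, 12.8-fold lower (log2 fold change -3.67, SE 0.11, adjusted p = 8.1e-17). Igfbp5, which binds IGF proteins and is not imprinted, had 17834, 17031 and 19021 and 4969.8, 4958 and 5036 after RA (log2 fold change -1.85, SE 0.13, adjusted p = 1.2e-07). All 3 were apart, and Igfbp5 was higher in DKO in serum/LIF, with means of 198 and 818 and an interaction of -3.91 (SE 0.18, adjusted p = 5.2e-09). Nnat, a membrane protein of the early nervous system, was higher (log2 fold change 0.86, SE 0.06, adjusted p = 1.3e-10), and so was Peg10, with 235816, 209109.7 and 254192 in WT and 295713, 294077 and 298472 in DKO (log2 fold change 0.35, SE 0.05, adjusted p = 2.7e-06). Overlapping and antisense transcripts are frequent at imprinted loci, and the sources used here do not state whether counting used strand.

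Targets of p53 were higher. Of 27, 20 were higher and 1 lower (median 0.39), and in serum/LIF 13 were higher. The interaction was above 0 in 15 and below 0 in 1. Plk2, a kinase induced by p53, had 1745, 1830.4 and 1739.6 in WT and 5314, 5197 and 5516 in DKO, 3.02-fold higher (log2 fold change 1.59, SE 0.05, adjusted p = 1.4e-16). Cdkn1a, the cell cycle inhibitor p21, had 3006, 3072 and 3025 and 4325, 4377 and 4269 (log2 fold change 0.51, SE 0.05, adjusted p = 4.8e-09), and the death receptor gene Tnfrsf10b 2404, 2219 and 2359.6 and 3796, 3606 and 3828 (log2 fold change 0.69, SE 0.05, adjusted p = 2e-10). The 3 pairs of groups did not overlap. Pmaip1, which encodes the death factor NOXA, was also higher (log2 fold change 0.95, SE 0.10, adjusted p = 7.8e-08). Trp53 itself, the single lower member, had 8219.5, 8016 and 7824 in WT and 7624, 7462 and 7635 in DKO, with a log2 fold change of -0.08 at an adjusted p of 0.047, a call lost under 9 of 16 alternatives, among them edgeR, the RA libraries alone, the replicate block and leaving out any library but replicate 3 of WT (adjusted p = 0.069 without replicate 2 of WT).

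Cell cycle genes did not lean to 1 side. Of 27 genes of replication and mitosis 6 were higher and 7 lower (median 0.01). Ccnd2 had 3480.2, 3441 and 3368 in WT and 2009.9, 2119 and 2169 in DKO (log2 fold change -0.71, SE 0.07, adjusted p = 6.4e-09), and Cdk6, its partner kinase, 883, 829 and 888 and 1499, 1582 and 1534 (log2 fold change 0.83, SE 0.06, adjusted p = 1.8e-10), so the 2 moved in opposite directions. Top2a, made in dividing cells, had 34698, 33042 and 35522 and 35243, 34566 and 35272 (adjusted p = 0.57).

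Genes of sugar metabolism were lower. Of 20 glycolysis genes 13 were lower and 3 higher (median -0.23), and in serum/LIF 12 and 3. Slc2a1, the main glucose importer, had 17857, 18666 and 16021 in WT and 9845, 11151 and 9917 in DKO (log2 fold change -0.76, SE 0.05, adjusted p = 4.2e-11). Ldha, which makes lactate, had 11366, 12874 and 9876 and 4043, 5914 and 4591 (log2 fold change -1.24, SE 0.14, adjusted p = 8.5e-05), while Ldhb, the subunit that favours pyruvate, had 1057, 1138 and 1052 and 1625, 1861 and 1787 (log2 fold change 0.70, SE 0.05, adjusted p = 1.3e-10). The DKO values of the first pair lay below and those of Ldhb above all WT values. Mdh2, of the citric acid cycle and among the genes of largest change in count, had 20154, 20207 and 18318 in WT and 10815, 10535 and 10256 in DKO (log2 fold change -0.89, SE 0.04, adjusted p = 1.4e-14), and Cox4i1, of the respiratory chain and taken by the same choice, 23221, 24312 and 22169.5 and 14577, 14104 and 13533 (log2 fold change -0.72, SE 0.04, adjusted p = 2.7e-12). Of 20 targets of the stress factor ATF4, 8 were lower and 2 higher, and of 23 genes of cholesterol synthesis 8 were lower and 3 higher, with medians of -0.09 and -0.11. Without replicate 3 of DKO, 5 cholesterol genes were lower.

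Interferon response genes were lower. Of 24 tested, 15 were lower and 2 higher (median -0.55), 13 and 2 without replicate 2 of WT, and 5 and 6 in serum/LIF. The higher ones were Ifit2 (log2 fold change 0.88, SE 0.16, adjusted p = 7.8e-05) and Tap1 (log2 fold change 0.33, SE 0.09, adjusted p = 0.005). Gbp2, a GTPase induced by interferon, had 1839, 1707 and 1725 in WT and 744, 748 and 738 in DKO (log2 fold change -1.24, SE 0.10, adjusted p = 8.9e-10). Psmb8, of the immunoproteasome, had 794, 889 and 771 and 266, 301 and 288 (log2 fold change -1.52, SE 0.21, adjusted p = 2.2e-06), and Bst2, which tethers viruses, 1923, 2241 and 1854 and 1032, 1130.5 and 1008 (log2 fold change -0.92, SE 0.08, adjusted p = 3.3e-09). The groups were apart in all 3. The transducer Irf1 was lower by less (log2 fold change -0.58, SE 0.05, adjusted p = 4.4e-09), and Stat2 did not pass the test (adjusted p = 0.39).

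Matrix genes were more often higher, and contractile genes went both ways. Of 36 collagens, laminins and integrins 19 were higher and 8 lower (median 0.19), and in serum/LIF 26 and 3. Col3a1, a fibrillar collagen, had 3478, 3649 and 3664 in WT and 8918, 9329 and 8738 in DKO (log2 fold change 1.32, SE 0.08, adjusted p = 4.3e-12). Col5a2, another fibrillar collagen and a neighbour of Col3a1 in the genome, had 1139, 1176 and 1210.3 and 384, 380.2 and 335 (log2 fold change -1.68, SE 0.09, adjusted p = 3.7e-13). The pair thus moved in opposite directions without overlap. Of 24 smooth muscle and fibroblast genes 8 were higher and 4 lower, and with the RA libraries alone 8 were higher and 10 lower. In 8 of these genes all DKO values were above all WT values and in 10 below. Acta2, smooth muscle actin, had 7709.8, 7539 and 6900.3 in WT and 10718, 10515 and 10413 in DKO (log2 fold change 0.52, SE 0.04, adjusted p = 1.3e-09), whereas desmin (Des) had 2751, 3019 and 2857 and 890.2, 855 and 832 (log2 fold change -1.74, SE 0.07, adjusted p = 2e-15) and the light chain gene Myl9 1727, 1784 and 1731 and 409.6, 407 and 351 (log2 fold change -2.17, SE 0.12, adjusted p = 1e-12). For Acta2 the difference was smaller than in serum/LIF, where the means were 1426 and 6070.2 and the interaction was -1.57 (SE 0.06, adjusted p = 1.1e-14).

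Of 26 germline and meiosis genes 14 were higher and 2 lower (median 0.47), and in serum/LIF 13 were higher and 6 lower. Dazl, an RNA-binding protein of germ cells, had 485, 487 and 376 in WT and 1575, 1575 and 1490 in DKO (log2 fold change 1.79, SE 0.09, adjusted p = 8.7e-14). Prdm1, a regulator that sets primordial germ cells apart, had 157, 124 and 142 and 479, 433 and 447 (log2 fold change 1.68, SE 0.11, adjusted p = 1.7e-11). The receptor Kit rose from 889.9, 864 and 954 to 1854, 1869.8 and 1836 (log2 fold change 1.04, SE 0.05, adjusted p = 1.4e-13). Each was higher in all 3 DKO libraries. Dazl and Kit were also higher in DKO in serum/LIF, with means of 641 and 1637 for Dazl and 2238 and 3188 for Kit. The 2 genes lower after RA were Tex11 and Sycp1 (-1.25 and -1.07, adjusted p = 2.7e-08 and 8.5e-07), both of meiotic chromosome pairing. Of 7 tested genes of the Y chromosome 6 were higher, with Ddx3y at 812, 872 and 906 in WT and 1617, 1562 and 1580.3 in DKO (log2 fold change 0.88, SE 0.07, adjusted p = 1.1e-10) and Usp9y at 5.404, 7.03 and 6.28 and 94.8, 86.3 and 59.1 (log2 fold change 3.46, SE 0.46, adjusted p = 1.6e-06), and in serum/LIF 6 were higher.

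Lists of chromatin genes had medians near 0, with larger changes in single genes. Of 38 Polycomb and trithorax genes 15 were higher and 3 lower (median 0.10), and 11 and 3 without replicate 2 of WT. Cbx7, a Polycomb reader of undifferentiated cells, had 4071, 4011 and 4102 in WT and 1658, 1639 and 1665 in DKO (log2 fold change -1.29, SE 0.04, adjusted p = 2.9e-17), while Rybp, of a variant complex, was higher at 1877, 1490.2 and 1995 and 2604, 2683 and 2707 (log2 fold change 0.59, SE 0.08, adjusted p = 3.8e-06). Of 16 CoREST genes 3 were higher and 3 lower (median 0.00), with 1 lower when replicate 3 of WT was left out. The scaffold gene Rcor1 had 2859.6, 2712 and 2943 in WT and 2555, 2575 and 2550.4 in DKO (log2 fold change -0.15, SE 0.05, adjusted p = 0.02, a call lost when any of 4 libraries was left out), Rcor2 4222, 4536 and 4199.7 and 3757, 3731 and 3789.8 (log2 fold change -0.20, SE 0.04, adjusted p = 0.00056), and Hdac1 9634, 9667 and 8918 and 9425, 9449 and 9480.3 (adjusted p = 0.89). Of 12 DNA methylation genes 4 were higher and 3 lower (median 0.05), and 1 was lower without replicate 1 or 3 of WT or replicate 2 or 3 of DKO. Among the higher was Dnmt3l, a cofactor of germ cells and embryonic stem cells, at 1023, 1049 and 999 and 1753, 1669 and 1649 (log2 fold change 0.72, SE 0.04, adjusted p = 1.3e-12). Of 21 genes that silence retroelements 9 were higher and 4 lower (median 0.06), with Chaf1a, a histone chaperone, at 9314, 9359.8 and 9036 in WT and 5719, 5808 and 5753 in DKO (log2 fold change -0.68, SE 0.04, adjusted p = 9.9e-13) and Zfp809, a zinc finger repressor of retroviruses, at 676, 596 and 757 and 1306, 1316 and 1265 (log2 fold change 0.94, SE 0.08, adjusted p = 2.7e-09).

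Single genes with the largest changes came from several classes. Cyp1a1, the classical target of the aryl hydrocarbon receptor, had 10.8, 12.04 and 7.18 in WT and 104, 127 and 114 in DKO (log2 fold change 3.42, SE 0.26, adjusted p = 2.1e-10), while Cyp1b1, another target, had 4417, 4163 and 4622 and 2094, 1963 and 2031 (log2 fold change -1.11, SE 0.07, adjusted p = 1.7e-12). Csn3, a casein, had 149.5, 92.3 and 102 in WT and 609.6, 623 and 616 in DKO (log2 fold change 2.45, SE 0.21, adjusted p = 1.2e-09). The groups of all 3 were apart. Pla2g1b, a secreted phospholipase, rose from 23.4, 28.1 and 21.5 to 134, 130.4 and 147 (log2 fold change 2.45, SE 0.11, adjusted p = 1.3e-14).

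The difference after RA was opposite to that in serum/LIF for part of the genes. Of 2916 genes called in both conditions, 2246 had the same sign and 670 opposite signs, 323 of them higher after RA and lower in serum/LIF and 347 the reverse. These 2 comparisons share no library. The first kind held Inhbb, an activin subunit, at 9.01, 6.02 and 14.4 in WT and 24.6, 25.7 and 21.5 in DKO after RA and means of 669 and 204 in serum/LIF, with an interaction of 2.99 (SE 0.34, adjusted p = 3e-07). It also held Ntn1, the guidance cue netrin, at 3463, 3557 and 3625 in WT and 5339.5, 5490.1 and 5152 in DKO after RA and means of 1498 and 759 in serum/LIF, with an interaction of 1.57 (SE 0.07, adjusted p = 8.8e-14). The second kind held Ndnf, a secreted neuronal factor, at 363, 340.2 and 386 and 57.8, 38.6 and 52.8 after RA and means of 145 and 273 in serum/LIF, with an interaction of -3.77 (SE 0.22, adjusted p = 3.5e-12). Cxcr4, a chemokine receptor of migrating cells, belonged to it as well, at 148, 122 and 98.7 and 32.2, 33.1 and 34.01 after RA and 54.4 and 181 in serum/LIF, with an interaction of -3.56 (SE 0.30, adjusted p = 2.6e-09). In each of these 4 the DKO and WT values after RA did not overlap.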

How the data were processed

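RNA-seq was made from 12 libraries of TT2 cells, 3 in each of 4 groups, and the 6 RA libraries are reported here. Per the submitters' processing notes, Trim Galore 0.6.10, STAR 2.7.11b, featureCounts of Subread 2.0.6 and DESeq2 1.44.0 were used with mm10. The sources used here do not state how strand and multi-mapping reads were treated. The authors deposited 1 table for genes and 1 for repeats, each with a signal per library (counts divided by DESeq2 size factors), a log2 fold change, a score (the test statistic) and a p-value with its adjusted form. Only the signal columns were used, and 0 columns of other series were found. Because 100% of the deposited values lay within 0.01 of whole reads after rescaling, reads were recovered for count tests: edgeR's quasi-likelihood test called 7099 genes.

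The values were tested as log2(normalized count + 1) with limma 3.58.1 (trend and robust settings, R 4.3.3), with all 12 libraries in 1 fit for each table and contrasts for genotype after RA, genotype in serum/LIF and their interaction. Features needed 10 or more in at least 3 libraries, and p-values were adjusted by the Benjamini-Hochberg method over all tested features, with a threshold of 0.05. Fold changes understate those of low features. The alternatives were edgeR 4.0.16, DESeq2 1.42.0, TMM scaling, other pseudocounts and filters, the RA libraries alone, no robust setting, a replicate block, other scalings of repeats, and each library left out in turn. The scripts were tested on simulated data. Counting intervals are exact for a ratio of 2 counts and cover counting error only. Promoters and gene positions came from RefSeq on GRCm38.p6.

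Members and gene lists were chosen with earlier results of these data known. Named genes were the targets, the 5 markers, the 10 higher and 10 lower genes of largest change in log2 and in count, up to 6 called members with the smallest adjusted p and 1 uncalled member of each list, any member of a list of 12 or fewer, and genes of largest interaction with opposite signs. Some genes that this choice takes are not reported here. Chosen after their values were seen were Fbxo15, Dppa4, Fgf17, Fgfr1, Fgfr3, Pou3f2, Rfx4, Hes5, Nes, Vim, Neurog1, Olig2, Lmx1a, Rarb, Aldh1a3, Hoxb5, Hoxc5, Eif1a, Zfp750, Tcstv3, Zfp352, Pmaip1, Trp53, Ldha, Ifit2, Tap1, Tex11 and Sycp1.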

Additional observations from a re-analysis of the deposited data

Results flagged for a closer look

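Each gene and repeat here was singled out because its genotype difference after RA departed from its genotype difference in serum/LIF by limma's interaction test at an adjusted p under 0.05, a test passed by 30.8% of all genes and 6.67% of all repeats. The values are the difference after RA minus that in serum/LIF, on the log2(normalized count + 1) scale. No cause was weighed. Tcstv3, Zfp352 and Pramel31 were tested only through their WT values after RA, so their values here are a description. Where a feature was near 0 in serum/LIF, the floor bounded its difference there. Serum/LIF means in WT and DKO were 3.41 and 0 for Tcstv3, 1.90 and 0 for Zfp352, and 0 and 0 for Hoxd3. For Hoxd3 the value is therefore its difference after RA alone.

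Among genes of pluripotency and of the LIF, FGF, BMP, Nodal and Wnt signals, the difference was above 0 for Wnt8a (2.42), Fgf17 (2.08), Etv5 (2.02), Tfcp2l1 (1.90), Fgf4 (1.86), Pou5f1 (1.64), Esrrb (1.54), Lefty2 (1.52), Il17rd (1.39), Tet2 (1.35), Tdh (1.30), Spry1 (1.09), Dppa2 (0.96), Nodal (0.82), L1td1 (0.61), Pim1 (0.48), Dusp6 (0.35) and Hmga2 (0.34). Among genes of pluripotency and of the LIF, FGF, BMP, Nodal and Wnt signals, the difference was below 0 for Cdh2 (-1.41), Fgfr3 (-1.10), Fgfr2 (-1.08), Sfrp1 (-1.07), Sfrp2 (-0.86), Id1 (-0.70), Socs3 (-0.63), Id3 (-0.56), Il6st (-0.47), Dppa4 (-0.45) and Fgfr1 (-0.26).

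Among neural and neuronal genes, the difference was above 0 for Olig2 (1.82), Gli1 (1.68), Ntn1 (1.57), Erbb3 (0.88), Stmn2 (0.63) and Notch2 (0.32). Among neural and neuronal genes, the difference was below 0 for Dbx1 (-4.51), Snap25 (-4.27), Nefm (-3.86), Robo2 (-3.83), Hes5 (-3.36), Pax7 (-3.33), Pou3f2 (-3.28), Rfx4 (-3.26), Lfng (-2.96), Sox3 (-2.92), Ptn (-2.66), Lmx1a (-2.61), Pax3 (-2.26), Sox9 (-1.83), Dll1 (-1.75), Lhx5 (-1.74), Pou4f1 (-1.44), Slc1a3 (-1.39), Neurog1 (-1.16), Elavl3 (-0.94), Lin28b (-0.77), Gata3 (-0.51), Vim (-0.41), Vgf (-0.38), Nes (-0.37) and Notch3 (-0.32).

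Among genes of the retinoid pathway and Hox partners, the difference was above 0 for Stra8 (1.73), Cdx1 (0.89), Hoxb2 (0.75), Rara (0.56), Cyp26a1 (0.39) and Crabp2 (0.26). Among genes of the retinoid pathway and Hox partners, the difference was below 0 for Hoxd3 (-1.96), Dhrs3 (-1.75), Aldh1a2 (-1.50), Stra6 (-1.38), Hoxb8 (-1.27), Crabp1 (-1.24), Fabp5 (-0.79) and Meis1 (-0.69).

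Among genes and repeats of the 2-cell-like state and other repeats, the difference was above 0 for L1Md_T (0.50), MMERGLN-int (0.36), Eif1a (0.25) and IAPEz-int (0.25). Among genes and repeats of the 2-cell-like state and other repeats, the difference was below 0 for Tcstv3 (-3.68), Zfp352 (-3.30), MERVL-int (-2.61), GSAT_MM (-2.53), Arg2 (-1.998), MT2_Mm (-1.83), MMVL30-int (-1.02), RLTR6_Mm (-0.86) and MT2B1 (-0.37).

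Among genes of matrix, other lineages, germline and the Y chromosome, the difference was above 0 for Gata4 (1.91), Tead4 (1.90), Prdm1 (1.49), Pecam1 (1.16), Kit (0.53) and Dazl (0.44). Among genes of matrix, other lineages, germline and the Y chromosome, the difference was below 0 for Cxcr4 (-3.56), Usp9y (-2.93), Myl9 (-1.73), Acta2 (-1.57), Col3a1 (-1.31), Cldn4 (-1.27), Des (-1.03), Sycp1 (-0.93), Ddx3y (-0.52) and Col5a2 (-0.46).

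Among genes of p53, metabolism, interferon, imprinting and chromatin, the difference was above 0 for Cyp1a1 (1.90), Zfp809 (0.68), Plk2 (0.65), Rybp (0.64), Pmaip1 (0.56), Ldhb (0.52), Cdkn1a (0.37), Top2a (0.33) and Dnmt3l (0.21). Among genes of p53, metabolism, interferon, imprinting and chromatin, the difference was below 0 for Dlk1 (-2.96), Psmb8 (-2.29), Gbp2 (-2.17), Igf2 (-1.37), Cyp1b1 (-1.36), Peg10 (-1.09), Cbx7 (-0.99), Bst2 (-0.65), Cdk6 (-0.54), Chaf1a (-0.53), Ccnd2 (-0.49), Irf1 (-0.46) and Slc2a1 (-0.39).

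Among further genes, the difference was above 0 for Inhbb (2.99) and Pla2g1b (1.51). Among further genes, the difference was below 0 for Igfbp5 (-3.91), Ndnf (-3.77), Pramel20 (-2.72), Pramel31 (-2.13), Cdh2 (-1.41), Mdh2 (-0.80), Lin28b (-0.77) and Cox4i1 (-0.72).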

How the results depend on the processing

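Of 1692 list counts over the alternatives, 79 moved by over 1.5 times, and no called gene or repeat named above changed direction. Of 157 named genes and repeats called after RA, 151 were called under every alternative and 6 lost the call under 1 or more. Of 19 named but not called, 9 were called under 1 alternative or more, so these depend more on the fit. With the size factors of the gene table, 37 repeats were lower after RA against 65, and 28 had an interaction below 0 against 45; that scaling shifts all repeats up. Leaving out each library in turn gave 5727 to 6387 called genes after RA (2971 to 3289 higher, 2747 to 3098 lower) and 95 to 119 repeats (51 to 58 higher, 41 to 61 lower), the lowest count of lower repeats without replicate 2 of DKO. It gave 4409 to 4839 genes in serum/LIF (2412 to 2636 and 1941 to 2233), 4242 to 4792 genes by the interaction (2007 to 2362 above 0, 2224 to 2467 below) and 54 to 87 repeats by the interaction (23 to 36 and 30 to 51). Deviations of same-numbered WT and DKO libraries after RA had correlations of 0.005, 0.022 and 0.011 over genes, so no large deviation was shared by number. Whether equal numbers were cultured or prepared together cannot be told from this. With a replicate block, 6537 genes (3368 higher, 3169 lower) and 127 repeats were called after RA.

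For Hox genes 20 were lower with the RA libraries alone, by edgeR and by DESeq2, against 8. Depth limits the lowest features: at 30869766 gene reads or more per RA library, genes without 10 normalized counts in at least 3 of the 12 libraries were not tested. Clones, cultures and batches are not named in the labels, so they cannot be told apart from genotype.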

Other observations

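Lists of other lineages, which belong to no question of the design, went both ways after RA. Of 20 tested endoderm genes 6 were higher and 3 lower. Gata4, a factor of primitive endoderm, had 45.03, 70.2 and 66.4 in WT and 210.5, 176 and 197 in DKO (log2 fold change 1.69, SE 0.28, adjusted p = 3.5e-05), while Gata6, its relative, had 994, 1102 and 1131 and 949, 849.5 and 832 and did not pass limma's test (adjusted p = 0.22). With the RA libraries alone Gata6 was called lower (adjusted p = 0.0015). Of 22 epithelial and trophoblast genes 8 were higher and 4 lower, and 8 and 2 without replicate 2 of WT. Tead4, a factor of trophoblast, had 90.1, 86.3 and 44.9 in WT and 228, 272 and 245 in DKO (log2 fold change 1.80, SE 0.19, adjusted p = 8.5e-08). Cldn4, a tight junction protein, had 2120.2, 2265 and 2092 and 1176, 1235 and 1128 (log2 fold change -0.87, SE 0.07, adjusted p = 3e-10), lower without overlap. Of 25 mesoderm and vascular genes 3 were higher and 3 lower, and 2 and 2 without replicate 2 of WT. Of the 23 that did not need 1 RA group to pass the filter, 3 were higher and 2 lower. Pecam1, of endothelium and also of embryonic stem cells, had 186, 241 and 212 in WT and 493, 596 and 464 in DKO (log2 fold change 1.28, SE 0.08, adjusted p = 2.5e-11). Of 15 neural crest genes 3 were higher and 5 lower, with Erbb3, a receptor for neuregulin, at 579, 542 and 585 in WT and 1434, 1399.6 and 1415 in DKO (log2 fold change 1.31, SE 0.05, adjusted p = 2.6e-15).

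Cell adhesion genes differed between the conditions. Of 13 tested cadherins 2 were higher and 5 lower after RA, 9 were higher in serum/LIF, and the interaction was below 0 in 7. Without replicate 1 of WT, or replicate 1 or 2 of DKO, 1 cadherin was higher. Cdh2, the neural cadherin, had 4793, 4547 and 4388 in WT and 3869, 3758 and 4147 in DKO after RA (log2 fold change -0.22, SE 0.06, adjusted p = 0.0023) and means of 827 and 1879 in serum/LIF. Of 18 formative and primed epiblast genes 10 were higher and 4 lower (median 0.51), with Pou3f1, a POU factor, at 108, 70.2 and 57.4 in WT and 133, 138 and 129 in DKO (log2 fold change 0.80, SE 0.16, adjusted p = 0.00021) and Sfrp2, a secreted Wnt modulator, at 873, 858 and 789 and 319.5, 320.5 and 342 (log2 fold change -1.36, SE 0.09, adjusted p = 3.7e-11).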
